A study of Homo sapiens with 4 samples.

Results

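The replication-dependent histone genes are the 70 of 19974 protein-coding genes in the RefSeq table of GRCh38.p14 whose symbols start with H2AC, H2BC, H3C or H4C and a number, or run from H1-1 to H1-6. They comprised 6 linker histone H1 genes, 17 H2A, 19 H2B, 13 H3 and 15 H4 genes, of which 55 lay on chromosome 6, 13 on chromosome 1, and 2 (H4C16 on chromosome 12 and H2BC12L on chromosome 21) elsewhere. Peaks of γH2AX, the H2A.X histone phosphorylated at a serine near its end and a mark of DNA damage, were listed by ChIP-seq in SK-UT-1, a human uterine leiomyosarcoma line. There were 4 libraries, 1 per condition. Cells received 0.1% DMSO as vehicle, OTS186935 at 1 µM, which inhibits the histone methyltransferase SUV39H2, doxorubicin at 0.5 µM, a drug that traps topoisomerase II on DNA, or the 2 agents together at those doses. The series title names a poly(ADP-ribose) polymerase inhibitor, an agent that none of these 4 libraries is labelled with. A gene was scored as having a peak when a merged peak overlapped its body or the 1 kb on either side by at least 1 bp. The labels give no treatment time, and peak positions do not test a cell type, so the line was not checked by marker genes. With 1 library per condition no difference between conditions could be tested, and each value below compares libraries.

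Replication-dependent histone genes supply the core and linker histones that package newly copied DNA. They are short genes without introns, transcribed in S phase under NPAT at the histone locus body, and their mRNAs end in a stem-loop in place of a poly(A) tail. H2A, H2B, H3 and H4 form the nucleosome core, on which H1 binds the linker DNA, and many H2A and H2B genes stand head to head over a shared promoter.

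The promoters of 4 genes with a peak close to the start are shown first, from 150 bases before the start through the first 30 bases of the gene, because the results below turn on them. Sequences are from RefSeq (GRCh38.p14), 5′ to 3′ on the strand of the gene, and capitals mark the motifs searched on both strands: TATAAA for the TATA box, CCAAT for the CCAAT box, ATTTGCAT for the octamer and AAACACA for the H1 box. H4C9 lies at chr6:27139132-27139311 on the plus strand, H1-1 at chr6:26017758-26017937 on the minus strand, H1-5 at chr6:27867559-27867738 on the minus strand and H3C10 at chr6:27809901-27810080 on the plus strand.
H4C9: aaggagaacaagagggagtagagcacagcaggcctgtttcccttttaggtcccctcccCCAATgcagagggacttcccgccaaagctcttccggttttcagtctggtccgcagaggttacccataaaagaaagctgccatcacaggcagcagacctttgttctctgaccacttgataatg
H1-1: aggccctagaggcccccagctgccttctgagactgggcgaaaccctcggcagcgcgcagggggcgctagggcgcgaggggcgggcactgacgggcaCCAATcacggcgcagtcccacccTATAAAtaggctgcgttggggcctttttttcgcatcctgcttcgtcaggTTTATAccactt
H1-5: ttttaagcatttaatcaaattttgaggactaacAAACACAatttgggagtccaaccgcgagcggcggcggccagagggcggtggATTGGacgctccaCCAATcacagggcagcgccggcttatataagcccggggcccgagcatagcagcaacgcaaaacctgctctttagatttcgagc
H3C10: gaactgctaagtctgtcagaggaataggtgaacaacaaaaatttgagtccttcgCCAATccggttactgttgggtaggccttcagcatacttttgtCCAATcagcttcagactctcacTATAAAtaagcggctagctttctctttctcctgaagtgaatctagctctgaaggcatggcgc
The H1-1 promoter lay wholly under a peak (180 of 180 bases) with DMSO, OTS186935 and doxorubicin, and had 0 bases under a peak in the combination. For H4C9 the bases under a peak numbered 103, 35, 43 and 8 in DMSO, OTS186935, doxorubicin and the combination. For H1-5 they numbered 156, 0, 180 and 0, and for H3C10 57, 52, 0 and 0.

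The second set is the DNA between the starts of 4 head-to-head H2A and H2B pairs, on the plus strand. No summit fell between the starts of the 11 pairs scored. These gaps are short and the pairs had 9 peaks in all, too few to tell whether summits avoid the gaps. H2BC13 and H2AC13 flank chr6:27807930-27808172, H2AC15 and H2BC15 flank chr6:27838376-27838568, H2AC7 and H2BC7 flank chr6:26199294-26199515, and H2BC8 and H2AC8 flank chr6:26216689-26216920.
H2BC13-H2AC13: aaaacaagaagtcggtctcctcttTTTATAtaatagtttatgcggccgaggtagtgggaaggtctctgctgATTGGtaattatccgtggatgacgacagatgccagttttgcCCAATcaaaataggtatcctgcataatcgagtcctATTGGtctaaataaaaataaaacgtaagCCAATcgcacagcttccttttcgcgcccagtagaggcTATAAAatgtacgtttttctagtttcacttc
H2AC15-H2BC15: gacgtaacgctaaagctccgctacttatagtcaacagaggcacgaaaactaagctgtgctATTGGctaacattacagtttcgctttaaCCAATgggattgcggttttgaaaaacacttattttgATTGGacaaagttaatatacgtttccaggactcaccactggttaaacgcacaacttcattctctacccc
H2AC7-H2BC7: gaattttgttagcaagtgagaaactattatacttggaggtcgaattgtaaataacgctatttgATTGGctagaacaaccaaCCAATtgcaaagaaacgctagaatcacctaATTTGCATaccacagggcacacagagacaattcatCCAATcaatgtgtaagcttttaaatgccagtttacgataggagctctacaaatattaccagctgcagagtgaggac
H2BC8-H2AC8: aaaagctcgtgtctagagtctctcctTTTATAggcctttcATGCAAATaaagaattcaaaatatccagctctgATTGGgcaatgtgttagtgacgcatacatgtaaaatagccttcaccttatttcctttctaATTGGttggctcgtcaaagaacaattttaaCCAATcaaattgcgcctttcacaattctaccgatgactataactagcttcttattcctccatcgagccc
The stretch between H2BC13 and H2AC13 had 42 of its 243 bases under a peak in the combination and 0 in the other 3 libraries. The other 3 stretches had 0 bases under a peak in any library, although H2AC15 and H2BC15 shared a peak in 2 libraries.

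Of the 70 genes, 64 had an entry in the RefSeq promoter table, which covers 250 bases before to 50 after the start. Their median GC content was 43.1% (lowest 36.3%, highest 58%), against 62.7% over 15813 promoters of all protein-coding genes. TATAAA was present in 65.6% of the histone promoters and 9.64% of all promoters, CCAAT in 84.4% and 36.3%, and ATTTGCAT in 40.6% and 1.7%. The octamer was found in 11 of 16 H2A and 14 of 18 H2B promoters, and in 0 of 6 H1 and 0 of 13 H4 promoters. The 1 match among 11 H3 entries was at H3C4, whose first entry is the same interval as that of H2AC7 (chr6:26199244-26199543, minus strand), so this promoter was counted under both. AAACACA was found in all 6 H1 promoters and in 4.25% of all promoters. A match describes these letters in this window only.

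The deposited lists held between 29619 rows (combination) and 76870 rows (DMSO), with 48594 for doxorubicin and 62008 for OTS186935, so the lists shortened in the order DMSO, OTS186935, doxorubicin, combination. After merging, 72858, 59710, 47495 and 29213 peaks were counted in that same order. The depth of the libraries is not stated, and no input library was used here. The median number of fragments at the summit, solved from the deposited fold and p-value, was 8 with DMSO and 7 in each treated library, so single peaks rest on few fragments. The fold is the authors' value for its own peak and ranks peaks within a list only. Many histone genes are near-identical copies, so that short reads may be placed on the wrong copy.

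With DMSO, 33 of the 70 histone genes had a peak, which is 47.1% (exact Clopper-Pearson 95% interval 35.1 to 59.4, counting error only). The OTS186935 library had 17 (24.3%, interval 14.8 to 36), the doxorubicin library 14 (20%, interval 11.4 to 31.3), and the combination library 18 (25.7%, interval 16 to 37.6). Over all protein-coding genes the shares were 71.5%, 64.3%, 57.7% and 44%, in the order of the list lengths. The histone share lay below that of all genes in every library. The DMSO count was the highest of the 4, and the counts of the treated libraries lay within each other's intervals; the combination, lowest among all genes, was not lowest among the histone genes. Histone genes have a median length of 494 bp, against 24170 bp over all genes, and longer windows meet more peaks. The part of length in these shares was not tested.

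Short genes are the nearer comparison. Among 1842 other genes up to 3 kb long (median 1610 bp), 37.4%, 30.7%, 24% and 16.7% had a peak with DMSO, OTS186935, doxorubicin and the combination. Among 462 other genes up to 1 kb, a limit chosen after the values were seen, the shares were 22.1%, 17.1%, 14.1% and 11.3%, while the 62 histone genes up to 1 kb had 46.8%, 22.6%, 19.4% and 27.4%. The histone genes thus lay above the other genes up to 1 kb in all 4 libraries, but by little with OTS186935 and doxorubicin. For the 64 histone genes up to 3 kb, the intervals were 13.8 to 35.7 with OTS186935 and 10.1 to 30.5 with doxorubicin. These hold the 17.1% and 14.1% of the other genes up to 1 kb. The histone genes lay above the genes up to 3 kb with DMSO and the combination and below them with either agent alone. In every library, however, the interval given above for the 70 histone genes holds the share of the genes up to 3 kb. With 2.5 kb flanks the histone genes lay above those genes with OTS186935 too (38.6% against 36.4%). With only peaks of −log10 q of 5 or more they lay below them with DMSO (5.71% against 11.8%). When every list was cut to its 29213 strongest peaks, 19, 9, 11 and 18 histone genes had a peak with DMSO, OTS186935, doxorubicin and the combination, against 17.8%, 17.1%, 17.8% and 16.7% of the other genes up to 3 kb. At equal list length the DMSO and combination counts of the histone genes were therefore 1 apart, and those of the single agents were lower. With peaks of −log10 q of 5 or more, 4, 3, 1 and 3 histone genes had a peak. Neighbouring histone genes share peaks, and the GC content of their promoters differs from that of all promoters as given above. The part of either in these shares was not tested.

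**Figure D1:**
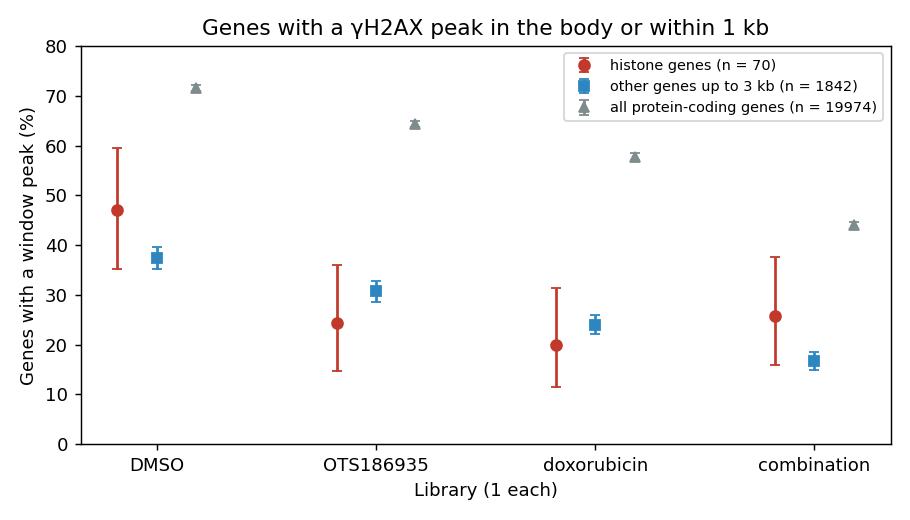
Share of genes with a window peak (vertical axis, percent) in each library, for the histone genes, for other genes up to 3 kb and for all protein-coding genes; error bars are exact 95% intervals. The histone share was 47.1% with DMSO and between 20% and 25.7% in the 3 treated libraries, while the shares of the other sets were lowest in the combination.

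Several genes shared 1 peak, so distinct peaks were counted too. The 33 genes of the DMSO library lay under 25 peaks, the 17 of the OTS186935 library under 15, the 14 of the doxorubicin library under 12 and the 18 of the combination under 13, which makes 65. Their folds ran from 3.06 to 6.89, 2.86 to 8.38, 3.45 to 5.95 and 3.22 to 6.43 in that order of libraries. The histone peaks had a median of 9, 6, 7 and 7 summit fragments, and 12%, 13.3%, 8.33% and 15.4% of them had a −log10 q of 5 or more, against 25.6%, 17.7%, 10% and 8.47% of all peaks. Most histone peaks thus lay below that level in every library.

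The chromosome 1 genes of the set had a peak with DMSO only. With DMSO 7 of 13 genes did, and in each treated library 0 of 13 did, which allows up to 24.7% of genes (exact 95% interval). Genes that share a peak are not independent, so this interval is too narrow. In the order DMSO, OTS186935, doxorubicin and combination, the shares were 71.5%, 64.3%, 57.7% and 44% over all genes. Over the other genes up to 3 kb they were 37.4%, 30.7%, 24% and 16.7%. The 7 genes lay under 3 peaks. The first, at chr1:149843328-149843695 (5.5-fold, 7 fragments), lay in the windows of H2AC18 and H4C15, with its summit in the pseudogene H2BC19P. The second, at chr1:149887623-149887967 (5.01-fold, 7 fragments), lay in the windows of H2BC21, H2AC20 and H2AC21, with its summit 140 bp after the start of H2AC21. The third, at chr1:228457268-228458437 (3.73-fold, 11 fragments), covered H2AC25 and the start of H2BC26, which form a head-to-head pair. The main chromosome 1 block (149782689 to 149887965) held 19 peaks per Mb with DMSO, 0.79 times the genome's 24.1, so its DMSO count was not above the genome's density. In each treated library it held 0 peaks per Mb, with an exact 95% interval of 0 to 35. That interval holds the genome's 19.7, 15.7 and 9.65 with OTS186935, doxorubicin and the combination. Histone genes outside the symbol rule were not counted here. H3-4, a 516 bp gene on chromosome 1, had 4.46-fold, 4.8-fold, 3.91-fold and 3.98-fold in the 4 libraries. H3-3A, also on chromosome 1, had 5.01-fold with DMSO and 2.72-fold with OTS186935 only, and H3-7 had none.

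Chromosome 6 carried all treated-library peaks of the set. Of its 55 genes, 26, 17, 14 and 18 had a peak with DMSO, OTS186935, doxorubicin and the combination, under 22, 15, 12 and 13 distinct peaks. The genes fall into 3 blocks separated by over 500 kb. The first block (25726063 to 26285534, 34 genes) had 12, 8, 10 and 8 genes with a peak, the middle block (27132316 to 27147562, 5 genes) 3, 5, 2 and 2, and the last block (27807479 to 27893891, 16 genes) 11, 4, 2 and 8. The drop from DMSO to doxorubicin was therefore 2 genes in the first block and 9 in the last block, while the combination gene count in the last block lay closer to DMSO. In distinct peaks the last block had 8, 3, 2 and 5.

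The last chromosome 6 block was also denser in peaks than the first. It held 127 DMSO peaks per Mb (exact 95% interval 63.5 to 228), 69.4 OTS186935 peaks, 34.7 doxorubicin peaks and 69.4 combination peaks, which is 5.29, 3.52, 2.21 and 7.2 times the density of the genome in the same library. The doxorubicin value rests on 3 peaks, and its interval, 7.16 to 101, holds the genome's 15.7. The first block held 37.5, 28.6, 19.7 and 17.9 peaks per Mb, or 1.56, 1.45, 1.25 and 1.85 times the genome. Its intervals, 23.2 to 57.4, 16.3 to 46.4, 9.81 to 35.2 and 8.57 to 32.9, hold the genome's density in every library. The middle block, 15.2 kb long, held 131, 131, 65.6 and 131 peaks per Mb, from 2, 2, 1 and 2 peaks. Whether the densities of the blocks differ between conditions was not tested.

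**Figure D2:**
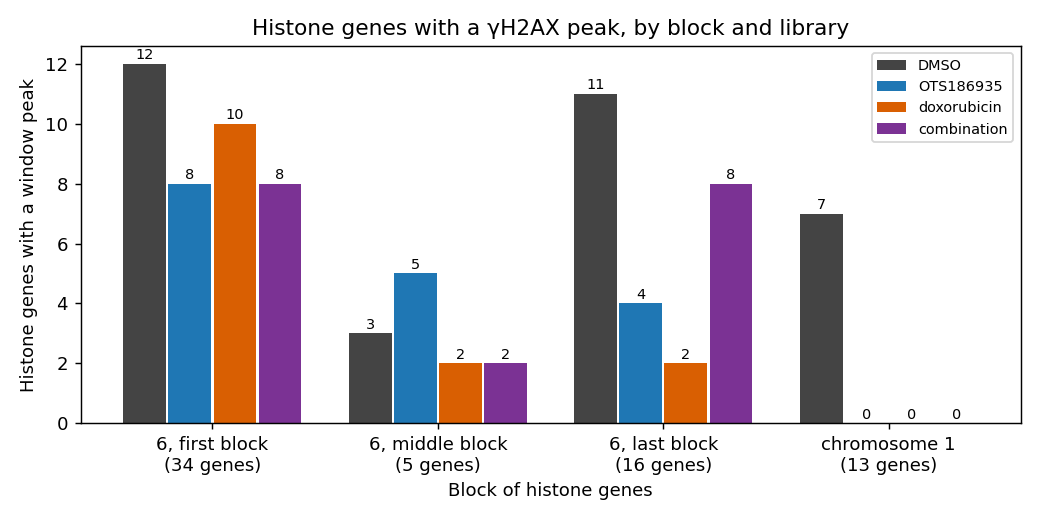
Histone genes with a window peak in each library (vertical axis, number of genes) by chromosome block. The last chromosome 6 block held 11, 4, 2 and 8 genes and the first 12, 8, 10 and 8. The chromosome 1 genes of the set numbered 7 with DMSO and 0 in the treated libraries.

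By family, the linker H1 genes had the highest share with a peak, but they number only 6. H1 had 5, 4, 4 and 4 of 6 genes with a peak with DMSO, OTS186935, doxorubicin and the combination. The intervals, 35.9 to 99.6 with DMSO and 22.3 to 95.7 in each treated library, overlap those of every other family. They also hold the shares over all genes, 71.5%, 64.3%, 57.7% and 44%. H1 genes had the longest median body, 766 bp, against 497, 482, 508 and 401 bp in H2A, H2B, H3 and H4. The part of length in the H1 share was not tested. H3 had 8, 5, 3 and 3 of 13, and H4 had 5, 3, 3 and 3 of 15. H2A had 8, 2, 1 and 3 of 17, and H2B had 7, 3, 3 and 5 of 19. In H2A and H2B the count was higher in the combination than with either agent alone.

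With OTS186935, 13 of the 33 DMSO genes (39.4%, interval 22.9 to 57.9) again had a peak, against 81.8% over all genes and 67.9% over the other genes up to 3 kb. The 13 were H1-1, H1-3, H1-4 and H1-5, H3C6, H3C8, H3C10 and H3C11, H4C6, H4C9 and H4C13, H2BC12 and H2AC12. By family, 4 of 5 H1, 4 of 8 H3, 3 of 5 H4, 1 of 8 H2A and 1 of 7 H2B genes were shared. A shared gene had a peak in both libraries, not always at the same site, and the H2AC12 peaks did not overlap. Another 20 DMSO genes (28.6% of the 70; background 13%) had none, and 4 genes without a DMSO peak had one (5.71%; background 5.86%). These 4 were H2BC6, H3C4, and H2AC11 with H2BC11. H2BC6 had 5.38-fold and 11 fragments at chr6:26183723-26184210, H3C4 had 3.8-fold and 6 fragments, and the head-to-head pair H2BC11 and H2AC11 shared a peak of 2.86-fold and 3 fragments.

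With doxorubicin, 12 of the 33 DMSO genes (36.4%, interval 20.4 to 54.9) had a peak, against 74% over all genes and 54.3% over the other genes up to 3 kb. The 12 were H1-1, H1-2, H1-3 and H1-5, H3C3, H3C6 and H3C8, H4C6 and H4C9, H2BC10 and H2BC12, and H2AC16. By family, 4 of 5 H1, 3 of 8 H3, 2 of 5 H4, 2 of 7 H2B and 1 of 8 H2A genes were shared. At H3C6, H3C8 and H2BC10 the doxorubicin peak did not overlap the DMSO peak. The comparisons with DMSO all use the same DMSO library, so they are not independent. The other 21 DMSO genes had none (30% of the 70; background 18.6%), and 2 genes, H2BC3 and H4C7, had a peak without one in DMSO (2.86%; background 4.82%). H4C7 had the highest fold of the histone genes with doxorubicin, 5.95-fold with 12 fragments at chr6:26247219-26247578, 451 bp before its start, and 3.98-fold with 7 fragments in the combination. H2BC3 shared its peak of 4.77-fold with H3C3, with the summit in the pseudogene H2AC5P.

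With the combination, 15 of the 33 DMSO genes (45.5%, interval 28.1 to 63.6) had a peak, against 57.9% over all genes and 40.1% over the other genes up to 3 kb. The interval holds both values. The interval with OTS186935 lay below both of its comparison shares, and that with doxorubicin lay below the share of all genes and held that of the other genes up to 3 kb. Genes that share a peak are not independent, so these intervals are too narrow. By family, 5 of 7 H2B, 3 of 5 H1, 3 of 8 H3, 2 of 5 H4 and 2 of 8 H2A genes were shared, counting a peak at any site. At H1-1, H4C6, H3C8, H2BC10 and H2BC14 the combination peak did not overlap the DMSO peak. H2BC12 was counted through the peak at H4C9, which lies within its annotated extent. The other 18 DMSO genes had none (25.7% of the 70; background 30.1%), and 3 genes had a peak without one in DMSO (4.29%; background 2.68%). These were H1-6, a testis H1 (4.2-fold, 5 fragments), H4C7, and H2AC14, which shared a peak with H2BC14 at chr6:27815233-27815899 (4.68-fold, 7 fragments). H2BC14 had a DMSO peak at another site, of 3.34-fold and 5 fragments.

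Combination and doxorubicin differ by the presence of OTS186935. Of the 14 genes with a doxorubicin peak 10 had one in the combination (71.4%, against 64.1% over all genes), 4 did not (5.71% of the 70; background 20.7%), and 8 genes had one in the combination alone of these libraries (11.4%; background 7.03%). The 8 were H1-6, H3C12, H2BC13 with H2AC13, H2AC14 with H2BC14, and H2AC15 with H2BC15, so 7 of them lay in the last block. The 4 were H1-2, H3C6, H2BC3 and H2AC16. Among the other genes up to 3 kb, 47.3% of those with a doxorubicin peak had one in the combination. Of all those short genes, 12.6% had a peak with doxorubicin only and 5.37% with the combination only. Combination and OTS186935 differ by the presence of doxorubicin. Of the 17 genes with an OTS186935 peak, 7 had one in the combination (41.2%, against 61.1% over all genes). Another 10 had a peak with OTS186935 only (14.3% of the 70, background 25%) and 11 with the combination only (15.7%, background 4.71%). For the other genes up to 3 kb these shares were 44.8%, 16.9% and 2.99%.

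Overlap was also counted by peak rather than by gene. Of the 25 histone peaks with DMSO, 10 (40%, interval 21.1 to 61.3) overlapped an OTS186935 peak, 8 (32%) a doxorubicin peak and 7 (28%) a combination peak. Over all DMSO peaks the shares were 44.4%, 35.1% and 23.6%, each within the histone interval (for doxorubicin 14.9 to 53.5, for the combination 12.1 to 49.4). In the other direction, 11 of 15 OTS186935 histone peaks (73.3%), 8 of 12 doxorubicin peaks (66.7%) and 7 of 13 combination peaks (53.8%) overlapped a DMSO peak, against 54.3%, 54.1% and 59.3% of all peaks. Between treated libraries, 6 of 12 doxorubicin histone peaks overlapped a combination peak, against 27.3% of all doxorubicin peaks, and 3 of 15 OTS186935 histone peaks did, against 25.7%.

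Peaks in all 4 libraries occurred at 7 histone genes, 10% of 70, against 33.9% over all genes, and 29 histone genes had none in any library (41.4%, against 19.2%). The 7 were H1-1, H1-3, H1-5, H4C6, H3C8, H4C9 and H2BC12. The peaks of all 3 treated libraries overlapped the DMSO peak at 3 sites, those of H1-3, H1-5, and H4C9 with H2BC12.

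H4C9, an H4 gene, had the strongest histone peak with DMSO and with OTS186935. The peak had 6.89-fold and 10 fragments with DMSO, 8.38-fold and 12 fragments with OTS186935, 5.04-fold and 6 fragments with doxorubicin, and 3.95-fold and 5 fragments with the combination. It lay at chr6:27139209-27139691 with DMSO, inside the 8566 bp annotated extent of H2BC12, and the H4C9 body is 397 bp long. All 4 summits fell in the H4C9 body, 247, 141, 173 and 177 bp after the start. In the DMSO peak the pileup is less certain, since 2 whole pileups matched the p-value.

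H1-5, a linker histone, had peaks of near-equal fragment number. They had 3.76-fold and 9 fragments with DMSO, 3.68-fold and 9 with OTS186935, 4.01-fold and 9 with doxorubicin, and 3.22-fold and 7 with the combination, with every summit in the gene. H1-3 had 4.81-fold with DMSO, 3.58-fold and 2.86-fold at separate peaks with OTS186935, 3.46-fold with doxorubicin and 4.31-fold with the combination. The H1-3 summits ranged from 212 to 1807 bp after the start, with 4 of 5 beyond the 776 bp body.

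H1-1, H4C6 and H3C8 had a peak in all 4 libraries, but not at one site. H1-1 had 5.28-fold with DMSO, 5.05-fold with OTS186935 and 4.6-fold with doxorubicin at overlapping sites, and in the combination 5.35-fold at chr6:26016335-26016641, 1302 bp after the start. H4C6 had 4.78-fold, 3.21-fold and 3.45-fold at sites more than 1 kb after its start with DMSO, OTS186935 and doxorubicin, and in the combination 6.43-fold with 10 fragments at chr6:26240370-26240792, 174 bp after the start. That was the highest fold of a histone gene in the combination. H3C8 had 4.87-fold with DMSO and 5.71-fold with OTS186935 over its body, and with doxorubicin (5.85-fold, 9 fragments) and the combination (6.32-fold, 10 fragments) a site over the pseudogene H2AC10P between H3C8 and H2BC10. The site over H2AC10P was absent from the DMSO and OTS186935 lists.

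H3C6 and H3C10, both H3 genes, were among the histone genes of highest fold with DMSO. H3C6 had 6.14-fold with 9 fragments with DMSO, 5.01-fold with 6 fragments with OTS186935, 3.6-fold with 4 fragments at another site with doxorubicin, and none in the combination. H3C10 had 5.34-fold with 13 fragments with DMSO and 3.75-fold with 7 with OTS186935, and none in the other 2 libraries. H4C13 and H3C11 shared a peak at 5.17-fold with DMSO and 5.09-fold with OTS186935, with summits 116 and 145 bp after the start of H4C13. H3C3 had 4.3-fold with DMSO, 3.93-fold with doxorubicin and 4.35-fold with the combination, at 238, 224 and 204 bp, and none with OTS186935.

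Of the DMSO-only genes, 7 lay on chromosome 1 and 3 on chromosome 6. The 3 were H3C2 (4.13-fold, 5 fragments), H4C4 (4.26-fold, 7 fragments) and H3C7 (4.15-fold, 9 fragments). The genes with DMSO and combination peaks only were H2BC13 and H2AC13 (4.63-fold and 3.84-fold), H2AC15 and H2BC15 (5.5-fold and 3.5-fold), H3C12 (5.3-fold and 4.09-fold) and H2BC14, all in the last chromosome 6 block.

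**Figure D3:**
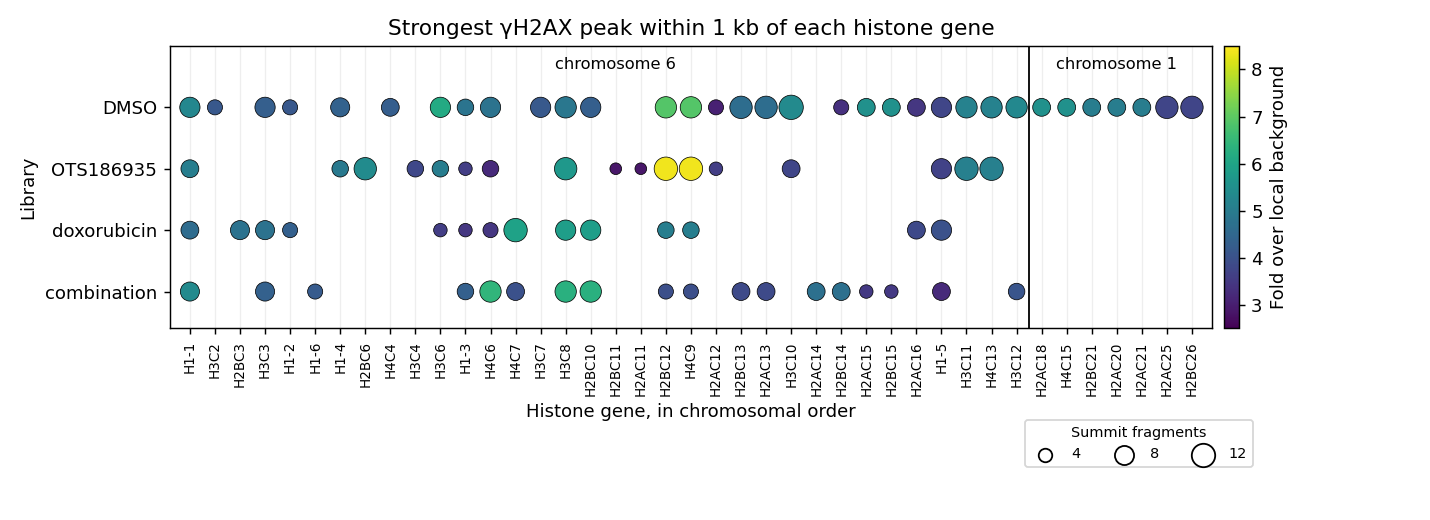
Strongest window peak of each of the 41 histone genes with a peak (horizontal axis, chromosomal order) in each library (vertical axis). The colour gives the authors' fold over local background, the point's area grows with the summit fragments, and a missing point means that no peak was listed. H4C9 with H2BC12 reached 6.89 with DMSO and 8.38 with OTS186935, and the chromosome 1 genes appear with DMSO only.

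Most summits lay inside the short bodies of the histone genes. A summit fell inside a histone gene body up to 1 kb long in 17 of 25 DMSO peaks, 10 of 15 OTS186935 peaks, 4 of 12 doxorubicin peaks and 9 of 13 combination peaks, or 40 of 65 (61.5%), and these bodies fill 14.4% of the scored windows. Over the 310 peaks of other genes up to 1 kb, 188 (60.6%) fell in the body, with bodies filling 27.3% of the windows. These window shares are not alike. The histone windows include those of members longer than 1 kb, whose bodies were not counted. With histone pseudogenes counted too, a choice made after the values were seen, 45 of 65 (69.2%) fell in a gene or pseudogene body. For 63 peaks the distance to the start of the nearest histone gene was known, and the median was 204 bp after the start (quartiles 140 and 416). With doxorubicin only 7 of 12 summits lay after the start, against 21 of 24 with DMSO, 14 of 15 with OTS186935 and 10 of 12 with the combination.

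**Figure D4:**
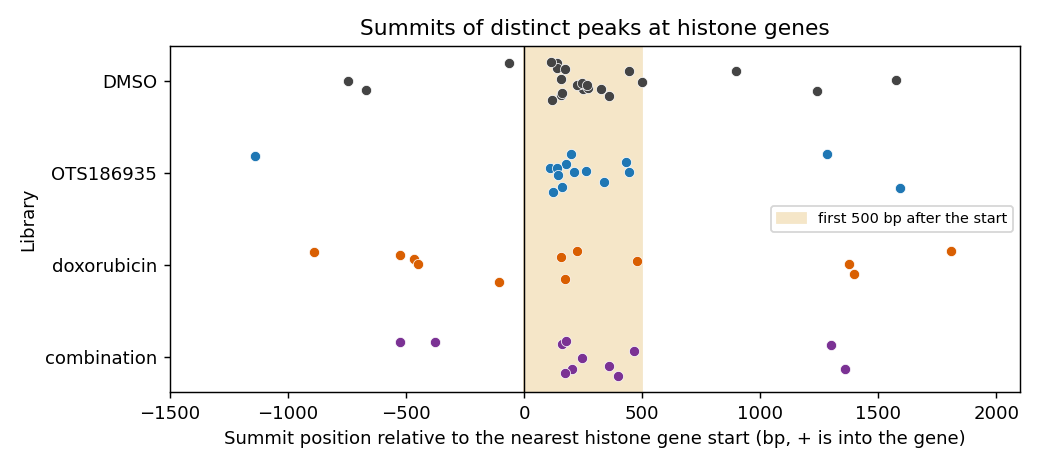
Distance of each summit from the start of the nearest histone gene (horizontal axis, bp, negative before the start) by library, for 63 peaks. Summits gather between 0 and 500 bp after the start: 42 of 63 lie there, with 18, 12, 4 and 8 in DMSO, OTS186935, doxorubicin and the combination.

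The 11 head-to-head H2A and H2B pairs with both starts in the promoter table have 194 to 248 bp between their starts. The DMSO library had a peak at 5 pairs, the OTS186935 library at 1, the doxorubicin library at 0 and the combination at 3, and 5 pairs had none in any library. H2BC12 and H2AC12, neighbours at a similar spacing, were not scored as a pair, since the table gives no start or strand for H2AC12. Both had a peak with DMSO and with OTS186935, so a score for them would add 1 pair to each of those counts. Of the 9 peaks of the 11 pairs, 0 had a summit between the starts. The gaps are a small part of the scored windows, so 9 peaks cannot tell whether summits avoid them. Of the 64 histone promoters, DMSO peaks overlapped 15, OTS186935 peaks 7, doxorubicin peaks 4 and combination peaks 7, which is 23.4%, 10.9%, 6.25% and 10.9%. Over 15812 promoters of all protein-coding genes the shares were 14.3%, 9.92%, 7.04% and 5.21%. In both sets only the first promoter entry of a gene was scored, and 4 histone genes have more than 1. These counts can thus miss a peak at another start. At H3C6 the DMSO and OTS186935 summits lay 119 and 161 bp after a start that was not scored. At H3C4 the OTS186935 summit lay 337 bp after such a start.

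Lists of related genes were scored the same way. Of 28 factors for histone transcription and mRNA processing, 22 (78.6%), 20 (71.4%), 22 (78.6%) and 12 (42.9%) had a peak with DMSO, OTS186935, doxorubicin and the combination, beside the 71.5%, 64.3%, 57.7% and 44% of all genes. Of the 22 DMSO genes 18 (81.8%), 20 (90.9%) and 11 (50%) again had one in the treated libraries, beside 81.8%, 74% and 57.9% over all genes. NPAT, which drives histone transcription, had 6.19-fold, 7.16-fold, 5.85-fold and 5.85-fold, and the highest DMSO folds on the list were 8.3-fold at GON4L and 7.92-fold at CTIF. The 26 histone genes listed as replication-independent, a list that includes H3-4, had 15 (57.7%), 15 (57.7%), 12 (46.2%) and 8 (30.8%) with a peak. H2BW1, a testis H2B, had 9.26-fold, 5.8-fold, 8.33-fold and 3.89-fold, and MACROH2A1, which encodes a large H2A variant, had 6.88-fold, 7.74-fold, 8.31-fold and 5.74-fold. Of 19 other genes between the first and last chromosome 6 member, 10 (52.6%), 12 (63.2%), 8 (42.1%) and 4 (21.1%) had a peak, led by the butyrophilin genes BTN3A1 (9.56-fold) and BTN1A1 (8.51-fold) with DMSO. Both related lists and these neighbours had their lowest count in the combination, as all genes did, and the histone genes did not. Whether the sets differ was not tested.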

How the data were processed

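The peak lists of 4 γH2AX ChIP-seq libraries were used, 1 per condition. Chromatin was fixed, sonicated and pulled down with an anti-γH2AX antibody, per the labels' protocols. The build hg38 and the tools MACS2 2.2.7.1, Bowtie2 2.4.2, bedtools 2.30.0 and Picard 2.25.3 are listed in the submitters' processing notes. Neither their settings nor the use of an input library is stated there. The authors deposited, for each peak, the fold enrichment (a ratio), the −log10 p and −log10 q, the score and the summit's offset from the peak start.

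Overlapping or touching rows were merged and chromosomes 1 to 22 and X kept. The fragments at a summit were solved from the deposited fold, as (pileup + 1) over (background + 1), and −log10 p within 0.002; of 2000 peaks sampled per library, 100% gave a whole number. Genes, starts and sequences come from RefSeq (GRCh38.p14). The scripts were tested on simulated data and used Python 3.11.15, pandas 2.3.3, scipy 1.17.1 and matplotlib 3.10.9.

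The gene set and lists were chosen with earlier results of these data known. Genes named are those with a peak in all 4 libraries, those with one in treated libraries and not DMSO, the 5 of highest fold per library, and the 6 of highest DMSO fold with none after treatment, with up to 6 per list and 4 neighbours; further genes named within a count were chosen after their values were seen. Alternatives tried were stricter peaks, other windows and overlaps, lists of equal length, unmerged rows, and leaving out the duplicated chromosome 1 block or members longer than 1 kb.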

Additional observations from a re-analysis of the deposited data

Results flagged for a closer look

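In the main counts, the number of histone genes with a peak changed in opposite directions when an agent was added alone and when it was added to the other agent. None of these differences was tested, since each condition had 1 library, and the subsets overlap one another. Adding OTS186935 took the count from 33 to 17 without doxorubicin and from 14 to 18 with it, a change of 4. In distinct peaks these steps were from 25 to 15 and from 12 to 13, since neighbouring genes share peaks. Adding doxorubicin took the gene count from 33 to 14 without OTS186935 and from 17 to 18 with it, a change of 1. This last step did not keep its direction: it was from 13 to 10 in gene bodies only, from 27 to 26 with 2.5 kb flanks, from 17 to 17 with 1 kb around the gene ends and from 3 to 3 with −log10 q of 5 or more, and distinct peaks went from 15 to 13. On chromosome 6 the counts went from 26 to 17 and from 14 to 18 with OTS186935 added (4), and from 26 to 14 and from 17 to 18 with doxorubicin added (1).

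In the last chromosome 6 block, which starts at 27807479, OTS186935 took the count from 11 to 4 alone and from 2 to 8 with doxorubicin (6). Doxorubicin took it from 11 to 2 alone and from 4 to 8 with OTS186935 (4). Distinct peaks at the genes of this block numbered 8, 3, 2 and 5 with DMSO, OTS186935, doxorubicin and the combination. For H2A genes the counts were 8 to 2 and 1 to 3 with OTS186935 added (2), and 8 to 1 and 2 to 3 with doxorubicin added (1). For H2B genes both agents gave 7 to 3 alone and 3 to 5 when added to the other (2).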

How the results depend on the processing

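Of 134 recomputed values, 100 stayed within 1.5 times the main count or within its interval, and 34 moved outside; the cause was not tested. With peaks of −log10 q of 5 or more, genes with a peak numbered 4, 3, 1 and 3 with DMSO, OTS186935, doxorubicin and the combination, under 3, 2, 1 and 2 peaks; 1 gene each had a peak with OTS186935 and doxorubicin but not DMSO, and 0% of the 4 DMSO genes had one with doxorubicin or the combination. In that setting the combination shared 1 gene with OTS186935 (OTS186935 alone 2, combination alone 2) and 0 with doxorubicin (doxorubicin alone 1, combination alone 3). In gene bodies only, 7 genes under 6 peaks had one with doxorubicin, 0 of them without a DMSO peak, and 10 with the combination. With 2.5 kb flanks, 27 genes had a peak with OTS186935, 15 in both the combination and OTS186935, and 14 in the combination and not doxorubicin. With lists of 29213 peaks, DMSO had 19 genes under 12 peaks and OTS186935 9 under 7; 2, 7 and 8 genes had a peak with OTS186935, doxorubicin and the combination but not DMSO, and 4 genes were in both OTS186935 and the combination, with 5 in OTS186935 only. No value moved outside those limits when rows were left unmerged, or when the duplicated chromosome 1 block or members over 1 kb were left out. Leaving out members over 1 kb was added after seeing the data. The same held with 1 kb around the gene ends and with at least 50% of the peak inside. Values did change within the limits, such as DMSO genes with a peak from 33 to 30 in that last setting. No paired analysis was possible because each condition had 1 library. Peaks of few fragments limit all counts.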
